A study of Mus musculus with 6 samples.

Results

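The liver expressed 145 long intergenic noncoding RNAs (lincRNAs) that the rule below takes, out of 1824 genes of that type (7.95%) and 32597 genes of any type in the authors' deposited table. A gene was taken where the table gave it the type lincRNA, where the larger of its 2 age values was at least 1 FPKM (fragments on a gene, scaled for transcript length and library size), and where it lay on chromosomes 1 to 19. The imprinted RNAs H19, Meg3, Rian, Mirg, Kcnq1ot1 and Airn were left out, and of these only H19 would otherwise have been taken. Of the other lincRNA genes, 666 were listed at 0 at both ages and 1009 stayed under 1 FPKM. The 145 were thus chosen by their measured FPKM at either age, so the levels and the age differences of these RNAs are given as descriptions, and no test of the 145 as a group was made.

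Livers of wild-type male C57BL/6 mice, an inbred laboratory strain, were compared at 2 ages: adults of 6 months, and young mice that the sample titles place at 3 weeks, the age field at 3 to 4 weeks and the series title at 1 month. Each age had 3 libraries, and each library pooled the RNA of 3 mice. The mice were bought from Harlan and kept specific-pathogen-free, without further treatment in the labels. The authors deposited 1 FPKM value per gene and age, so neither a spread between libraries nor any overlap between the ages can be given, and the depth behind a value is unknown. The verbs rise and fall are kept for genes with a q-value (a p-value adjusted for multiple testing) under 0.05 in the authors' deposited table. That q-value is the only measure of error here. It rests on libraries of pooled RNA, so it holds no spread between single animals.

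LincRNAs are transcribed by RNA polymerase II from their own loci, are usually capped, spliced and polyadenylated, and have no long conserved reading frame. Some, such as Neat1 and Malat1, stay in the nucleus and take part in nuclear bodies. Others are hosts from whose introns small nucleolar RNAs (snoRNAs) or microRNAs are cut, and many have no known function. As a class they are expressed at lower levels than coding genes and often in a tissue-restricted way.

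The lincRNAs were low in liver at both ages. Their median level was 2.42 FPKM in adult and 2.49 FPKM in young liver, against 7.98 FPKM in adult and 7.92 FPKM in young liver for the protein-coding genes that were tested and reached 1 FPKM. Of the 145, 69.7% stayed under 5 FPKM at both ages, compared with 35.3% of those coding genes. Only 27 reached 10 FPKM and 5 reached 50 FPKM. In adult liver 5 lincRNAs were under 1 FPKM, and in young liver 17, and these passed the limit through the other age alone. Together the 145 summed to 2078 FPKM in adult and 1896 FPKM in young liver, which was 0.271% of the whole table's sum in adult and 0.249% in young liver.

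**Figure D1:**
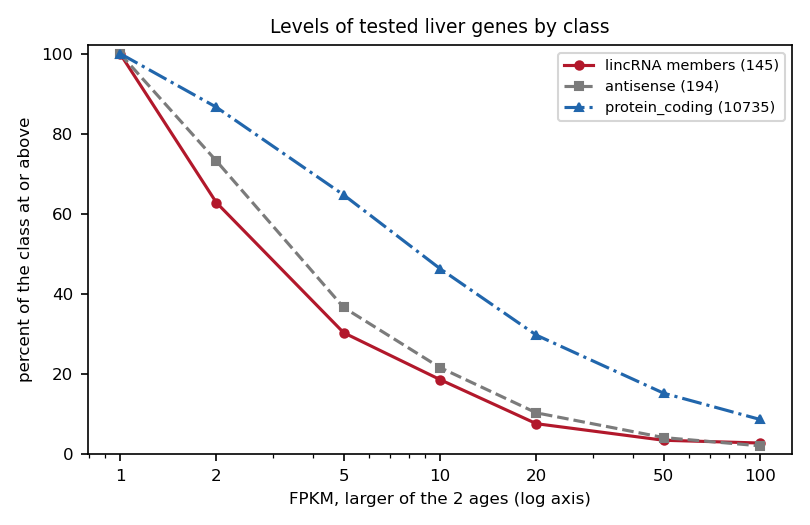
Percent of genes in a class (vertical axis) whose larger FPKM of the 2 ages reached the level on the horizontal axis (log scale), for the 145 lincRNAs, 194 antisense genes and 10735 protein-coding genes tested at 1 FPKM or more. At 10 FPKM, 18.6% of the lincRNAs, 21.6% of the antisense genes and 46.3% of the coding genes remained.

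A few transcripts carried much of the summed signal. The 3 highest held 57.2% of the lincRNA sum in adult and 55.2% in young liver. Yam1 was first, with 731 FPKM in adult and 588 FPKM in young liver. Its single exon on chromosome 17 lies wholly inside a ribosomal RNA gene of GENCODE M21 on the other strand, and 1245 of its 1831 bases overlap an 18S ribosomal RNA pseudogene, Rn18s-rs5, in RefSeq. Reads of ribosomal RNA and of Yam1 therefore cannot be told apart here. Without Yam1, the sum over the other 144 was 1347 FPKM in adult and 1308 FPKM in young liver, and their 3 highest held 41.3% of it in adult and 40.4% in young liver. Gm26809 on chromosome 6 had 343 FPKM in adult and 332 FPKM in young liver, and Gm12840 on chromosome 4 had 114 FPKM in adult and 128 FPKM in young liver. Of the 3141 bases of Gm26809, 1451 overlap the lincRNA Gm20186 of GENCODE M21 on the other strand. Gm12840 lies wholly inside the longer noncoding RNA Gm34746 of RefSeq. Gm26880 had 79.1 FPKM in adult and 82.6 FPKM in young liver. It lies inside the zinc finger gene Zfp981 on chromosome 4, in a cluster of similar gene copies that can share reads.

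Of the rest of the 12 highest, Gm27216 had 31.0 FPKM in adult and 34.2 FPKM in young liver. Gm26669, which overlaps the mRNA decay factor gene Zfp36l1 on the other strand, had 25.6 FPKM in adult and 29.9 FPKM in young liver. For 2310001H17Rik the values were 16.8 FPKM in adult and 22.3 FPKM in young liver. Known also as Cyrano, 1700020I14Rik had 16.97 FPKM in adult and 17.3 FPKM in young liver. Cyrano is a conserved RNA known for a site that pairs with the microRNA miR-7 and leads to its decay. None of these 4 was called, and the remaining 4, 1810058I24Rik, Gm15611, Gm26905 and Snhg6, are described with the age comparison.

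The type "intergenic" was not borne out by position for all of the 145. The spans of 58 overlapped a protein-coding gene of the same table, 54 of them on the other strand and 4 on the same strand. In GENCODE M21, a later annotation of the same genome build, 109 kept the type lincRNA, 17 were typed antisense, 6 bidirectional promoter RNA, 5 processed transcript, and 5 another type, while 3 identifiers were not found there. One of them, Fam169b, is protein-coding in that annotation. Whether the library kit kept strand was not given in the sources used here, so reads from a lincRNA and an overlapping gene cannot be told apart. The symbols Fam160a2 and 4930556M19Rik stand on more than 1 row of the table, and their values are uncertain. In M21 the lincRNAs had a median of 3 exons, counted in the transcript with the most, and 5 had a single exon. The exons of all transcripts of a lincRNA together covered a median of 1820 bases. Pvt1 was the longest, with 10 exons over 340111 bases of chromosome 15. For the 141 with a complete frame, from ATG to stop, in an M21 transcript, the longest open reading frame had a median of 75 codons. In 26 it had at least 100 codons. The longest frames were in B230354K17Rik with 493 codons, BC002059 with 410, A330044P14Rik with 376 and Fam169b with 342.

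Between the ages, 7 lincRNAs rose and 3 fell, together 10 of 145 (6.90%) at a q-value under 0.05 in the authors' deposited table. Among all 11741 genes tested at 1 FPKM or more, 7.47% were called, 3.99% higher and 3.48% lower in adult liver, so the share of lincRNAs was close to the background. The 7 that rose were 1810058I24Rik, Gm15611, 9030616G12Rik, 1700080G11Rik, Gm12718, Pvt1 and 9430037G07Rik. Neat1, Gm26905 and Gm21817 fell. For comparison, 7.84% of coding genes and 2.58% of antisense genes were called. Of the 44 lincRNAs at 5 FPKM or more, 6 were called (13.6%), and of the 101 below that level 4 were called (3.96%). Among coding genes the shares were 7.53% at 5 FPKM or more and 8.43% below. All 10 called RNAs kept the type lincRNA in M21, and all 10 lay apart from coding genes: 10 of the 87 that lay apart were called (11.5%), and 0 of the 58 that overlapped one. The same split was not made for the other tested genes, so it has no background here. Among the 135 uncalled RNAs, 12 had an unadjusted p under 0.05 in the authors' deposited table, 7 higher and 5 lower in adult liver. With the called ones this made 22 of 145 (15.2%), close to the 16.1% of all tested genes.

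**Figure D2:**
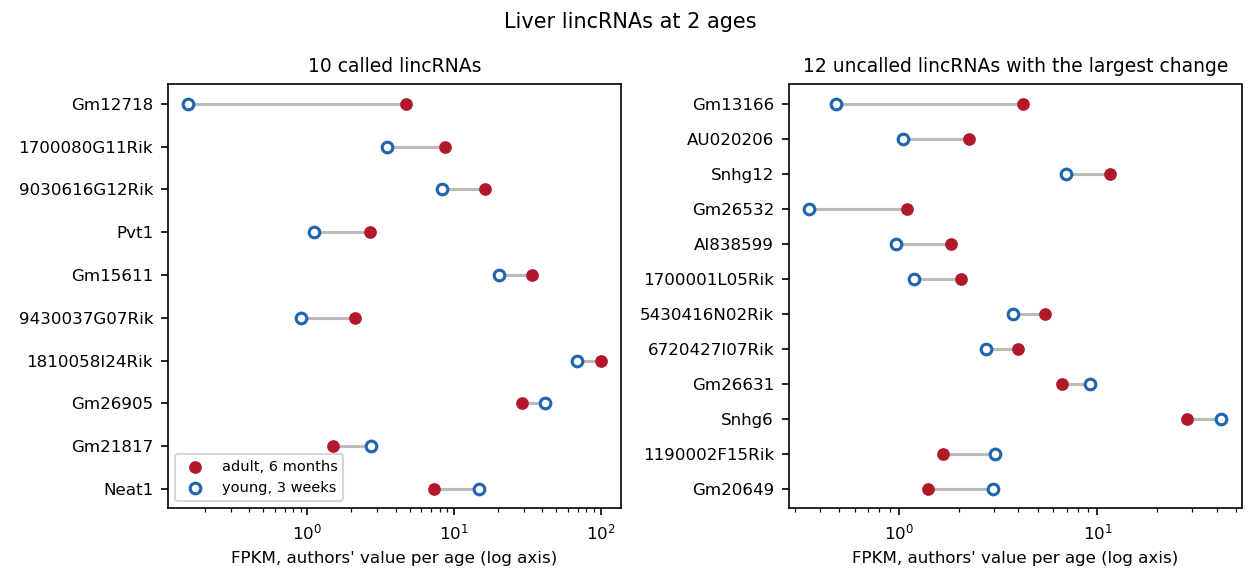
FPKM (horizontal axis, log scale) in adult liver (filled) and young liver (open) for the 10 called lincRNAs (left) and the 12 uncalled ones with the largest absolute change (right), ordered by change. Each point is the authors' single value per age. The gap of Gm12718, 4.73 FPKM in adult and 0.155 FPKM in young liver, is the widest.

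Most lincRNAs differed little between the ages. The change is given as log2 of (adult FPKM + 1) over (young FPKM + 1), which understates the change of low genes. Its median over the 145 was 0.07 with quartiles of -0.11 and 0.24, against a median of 0.00 with quartiles of -0.16 and 0.16 over all tested genes. In FPKM, 88 of the 145 were higher in adult and 57 in young liver (60.7% higher in adult, against 50.5% of all tested genes). Over the 44 at 5 FPKM or more the median change was 0.00. In 84 of the 145 the ratio of the ages was within 1.25-fold either way. On the log2 scale with the added 1, only Gm12718, Gm13166 and 1700080G11Rik passed 2-fold, all higher in adult liver, and 0 passed it lower; in the background 4.79% of genes passed it, 2.97% higher and 1.81% lower.

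**Figure D3:**
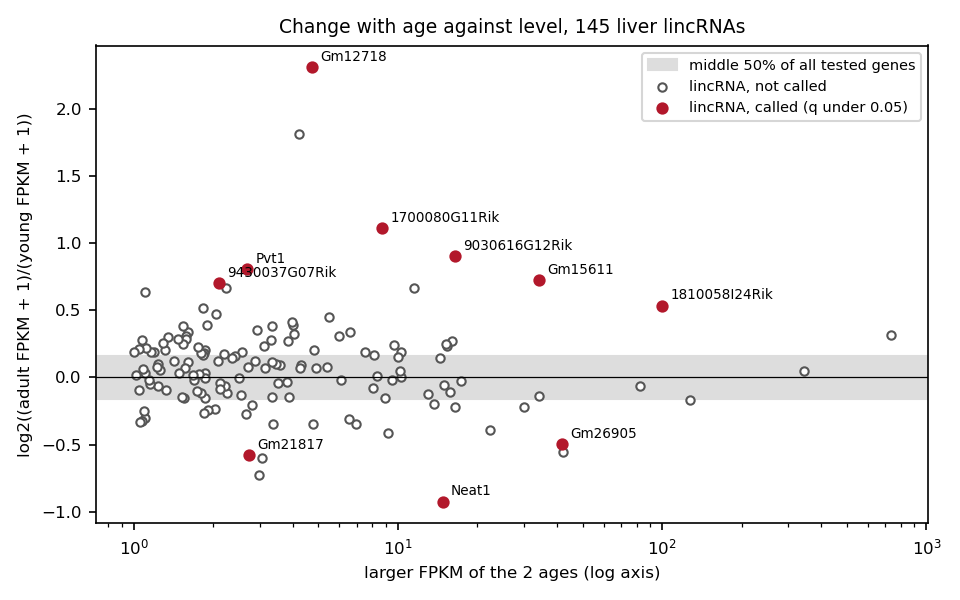
Change between adult and young liver (vertical axis, log2) against the larger FPKM of the 2 ages (horizontal axis, log scale) for each of the 145 lincRNAs, with the called ones filled and named. The grey band spans the quartiles of all tested genes, -0.16 to 0.16, and the called RNAs lie outside it at levels between 2.11 and 100.1 FPKM.

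The highest of the called RNAs was 1810058I24Rik on chromosome 6 (35252654 to 35263496, plus strand), with 100.1 FPKM in adult and 68.8 FPKM in young liver. It rose by 0.53 on the log2 scale (q = 0.0292 in the authors' deposited table). Although typed lincRNA in the deposited table and in M21, RefSeq lists this gene as protein-coding, and it is known to encode a short mitochondrial peptide, also called Stmp1. The first ATG of its longest M21 transcript, which has 2521 bases, opens a frame of 47 codons at bases 115 to 258. Another M21 transcript holds a longer frame of 75 codons, which equals the median over the lincRNAs, so the coding status rests on RefSeq. The 47-codon frame is shown because RefSeq types this RNA as a message; the capitals mark the start and stop codons.
1810058I24Rik reading frame: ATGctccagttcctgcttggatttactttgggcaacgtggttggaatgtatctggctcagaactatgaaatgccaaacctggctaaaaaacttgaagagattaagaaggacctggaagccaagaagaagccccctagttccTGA

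On chromosome 5 (8998402 to 8999669, minus strand), Gm15611 had 34.2 FPKM in adult and 20.3 FPKM in young liver. It rose by 0.72 on the log2 scale (q = 0.0260 in the authors' deposited table). Its nearest coding gene, 1078 bases away, is Crot, the peroxisomal carnitine octanoyltransferase, which had 482 FPKM in adult and 439 FPKM in young liver and was not called (q = 0.933 in the authors' deposited table). With 16.4 FPKM in adult and 8.31 FPKM in young liver, 9030616G12Rik on chromosome 10 (128971197 to 128978115, plus strand) was close to double (log2 change 0.90, q = 0.00189 in the authors' deposited table). Mettl7b, the nearest coding gene at 10209 bases, had 352 FPKM in adult and 322 FPKM in young liver and was not called. Both of these lincRNAs thus stood near genes that were far more abundant and were not called.

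More isolated was 1700080G11Rik on chromosome 4 (127531622 to 127532885, plus strand). By the deposited spans it lay 173441 bases from the next coding gene, the widest gap among the 145. Its RefSeq start lies 56781 bases upstream of the deposited one, so the gap may depend on the annotation. This lincRNA had 8.70 FPKM in adult and 3.48 FPKM in young liver, a log2 change of 1.11 (q = 0.00189 in the authors' deposited table). Gm12718, also on chromosome 4 (103382500 to 103492040, plus strand), had the largest change, with 4.73 FPKM in adult and 0.155 FPKM in young liver. Its log2 change was 2.31 and the plain ratio of its FPKM values was 30.6 (q = 0.00189 in the authors' deposited table). As its young level was under 1 FPKM, it entered the 145 through the adult value, and the ratio rests on a young value of unknown depth.

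The plasmacytoma variant translocation RNA, Pvt1, is a regulator of cell growth known for lying beside the oncogene Myc, with which it is amplified in tumours. It had 2.69 FPKM in adult and 1.11 FPKM in young liver and rose by 0.81 on the log2 scale (q = 0.00629 in the authors' deposited table). Myc itself, 47612 bases away on chromosome 15, had 2.47 FPKM at each age and was not called (q = 0.998 in the authors' deposited table). The last to rise was 9430037G07Rik on chromosome 9 (88595325 to 88599516, minus strand), with 2.11 FPKM in adult and 0.911 FPKM in young liver. Its log2 change was 0.70 (q = 0.0035 in the authors' deposited table), and it too passed the 1 FPKM limit only through the adult value.

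Promoter windows from RefSeq (GRCm38.p6, 250 bases before to 50 after the start) were at hand for 62 of the 145 and for 4 of the 10 called RNAs. Those of the 3 called RNAs whose RefSeq start lay within 1000 bases of the deposited one are shown, because the data bear on their change with age and they differ in base composition. They lie at chr6:35252460-35252759 (plus strand), chr10:128970947-128971246 (plus strand) and chr9:88599194-88599493 (minus strand). The capitals mark TTCNNNGAA (STAT type) in the first window, 90 bases before the RefSeq start. In the others they mark TATAAA, 147 and 245 bases before the RefSeq start. For 9430037G07Rik the RefSeq start lies 273 bases downstream of the deposited start. Its window, with the TATAAA, therefore lies wholly inside the gene as deposited.
1810058I24Rik promoter window: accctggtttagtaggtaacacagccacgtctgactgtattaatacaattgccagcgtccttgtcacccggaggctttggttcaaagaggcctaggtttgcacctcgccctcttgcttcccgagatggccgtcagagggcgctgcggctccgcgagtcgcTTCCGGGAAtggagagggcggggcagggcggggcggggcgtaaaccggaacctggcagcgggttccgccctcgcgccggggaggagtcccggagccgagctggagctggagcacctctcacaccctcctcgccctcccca
9030616G12Rik promoter window: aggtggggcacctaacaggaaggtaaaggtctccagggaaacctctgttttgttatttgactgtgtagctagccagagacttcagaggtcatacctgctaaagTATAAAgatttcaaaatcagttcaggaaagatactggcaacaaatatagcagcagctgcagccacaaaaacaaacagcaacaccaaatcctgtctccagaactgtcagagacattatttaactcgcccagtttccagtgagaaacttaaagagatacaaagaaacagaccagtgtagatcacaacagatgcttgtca
9430037G07Rik promoter window: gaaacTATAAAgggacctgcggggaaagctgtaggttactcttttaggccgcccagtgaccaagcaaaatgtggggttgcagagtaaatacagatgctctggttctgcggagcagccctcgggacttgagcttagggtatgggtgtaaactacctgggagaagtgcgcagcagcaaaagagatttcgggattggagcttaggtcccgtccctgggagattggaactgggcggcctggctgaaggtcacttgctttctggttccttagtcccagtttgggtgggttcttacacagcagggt

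The window of 1810058I24Rik was 65% G and C with 25 CpG pairs, that of 9030616G12Rik 42% with 1 CpG, and that of 9430037G07Rik 53.3% with 8. The 62 windows follow the RefSeq start, which lay within 100 bases of the deposited start for 44 of them and over 1000 bases away for 11. Over the 62 windows the median was 53.8% G and C with 13 CpG pairs, against 60.7% and 21 for 8203 coding genes and 52.7% and 7 for all 27025 windows. Over the 44 nearest windows it was 54.7% with 13.5 CpG pairs. TATAAA on either strand was found in 14.5% of the lincRNA windows, 7.41% of the coding ones and 14.2% of all. TTCNNNGAA was found in 3.23%, 7.18% and 8.47% of them in that order, and the E-box CACGTG in 12.9%, 10.6% and 7.24%. The palindrome GCCNNNGGC, a guide to base composition, was in 14.5% of the lincRNA windows, 24.6% of the coding ones and 16.5% of all. The D-box type letters TTATGCAA or TTATGTAA, the HNF4 type letters TGACCTTTG or TGAACTTTG, and the longer interferon response and HNF1 type motifs were in 0 of the 62. Motifs were searched on both strands as exact letters, in which N is any base, and a match is not evidence of binding. None of these motifs contains another, although matches may overlap in a window.

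Neat1, the scaffold RNA of nuclear paraspeckles, fell. On chromosome 19 (5824708 to 5845478, minus strand), it had 7.31 FPKM in adult and 14.8 FPKM in young liver, a log2 change of -0.93 (q = 0.00189 in the authors' deposited table). Its neighbour Malat1, a nuclear speckle RNA on the same chromosome, had 15.2 FPKM in adult and 12.7 FPKM in young liver and was not called (q = 0.940 in the authors' deposited table). The coding gene next to Neat1, Frmd8, at 4224 bases, had 4.35 FPKM in adult and 3.64 FPKM in young liver and was not called. Whether Neat1 and Malat1 differ in their change was not tested. Of the other RNAs on the list of nuclear retained transcripts, Tug1, typed processed transcript, had 10.4 FPKM at each age, and Miat stayed under 0.01 FPKM at both.

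Gm26905 on chromosome 8 (58171435 to 58298866, plus strand) had 29.2 FPKM in adult and 41.6 FPKM in young liver. It fell by 0.50 on the log2 scale (q = 0.0292 in the authors' deposited table). No coding gene lies within 128628 bases of it. Gm21817, a single-exon gene also on chromosome 8 (92336668 to 92339250, minus strand), had 1.49 FPKM in adult and 2.72 FPKM in young liver. It fell by 0.58 on the log2 scale (q = 0.0112 in the authors' deposited table). It overlaps the lincRNA Crnde on the same strand, so reads may be split between them; Crnde itself had 0.130 FPKM in adult and 0.05 FPKM in young liver.

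Other RNAs differed between the ages without reaching the threshold. Gm13166, in the zinc finger gene cluster of chromosome 4, had 4.21 FPKM in adult and 0.481 FPKM in young liver, a log2 change of 1.81, with q = 0.209 in the authors' deposited table. AU020206 had 2.25 FPKM in adult and 1.05 FPKM in young liver (q = 0.0538 in the authors' deposited table). AI838599 had 1.82 FPKM in adult and 0.968 FPKM in young liver, 1700001L05Rik 2.06 in adult and 1.20 in young, and 5430416N02Rik 5.47 in adult and 3.74 in young. These 5 were higher in adult liver, by 0.45 to 1.81 on the log2 scale.

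Lower in adult liver, also uncalled, was Gm20649, with 1.40 FPKM in adult and 2.98 FPKM in young liver (q = 0.196 in the authors' deposited table). It shares its strand and locus on chromosome 9 with Onecut1, the liver transcription factor HNF6, which had 3.77 FPKM in adult and 9.10 FPKM in young liver and was not called either. Lockd, listed as 1190002F15Rik and named for lying downstream of the cell cycle inhibitor gene Cdkn1b, had 1.67 FPKM in adult and 3.06 FPKM in young liver. Its q-value was 0.199 in the authors' deposited table, while Cdkn1b had 8.96 FPKM in adult and 8.74 FPKM in young liver. Gm26631, which overlaps the respiratory chain gene Cox5a and the gene Fam219b on the other strand, had 6.63 FPKM in adult and 9.19 FPKM in young liver.

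The snoRNA hosts are genes whose introns release guide RNAs for the modification of ribosomal and other RNAs. Of the 20 on the list, 16 were in the table, 15 were tested at 1 FPKM or more, and 7 of these belong to the 145. None of the 15 was called, against the background of 7.47%, and their median log2 change was 0.21, compared with 0.00 over all tested genes. Snhg12 had 11.6 FPKM in adult and 6.93 FPKM in young liver, with q = 0.0937 in the authors' deposited table. Snhg6 was lower, with 28.3 FPKM in adult and 42.0 FPKM in young liver, and q = 0.0708 in the authors' deposited table. The other 5 typed lincRNA had smaller differences: Epb41l4aos 14.5 FPKM in adult and 15.8 in young, Snhg20 4.31 in adult and 3.98 in young, Snhg1 3.11 in adult and 2.49 in young, Snhg7 1.31 in adult and 0.999 in young, and Snhg18 0.706 in adult and 1.11 in young. Hosts of another type included Gas5, a growth arrest RNA, with 257 FPKM in adult and 189 FPKM in young liver (q = 0.201 in the authors' deposited table). Snhg11 was called higher in adult liver but stayed under 1 FPKM at both ages, with 0.885 FPKM in adult and 0.271 FPKM in young liver. The list goes by name. Outside it, the called lincRNA 9430037G07Rik shares 72 bases on its own strand with a snoRNA gene, Gm23017.

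Many snoRNA hosts are known to begin with a run of C and T bases, the 5′ terminal oligopyrimidine tract of translation-regulated messages. The RefSeq starts of 5 of the 7 are shown for that reason, 10 bases before the start and 20 from it on, with the unbroken run of C and T at the start in capitals. They lie at chr4:132308668-132308697 (plus strand), chr15:32244643-32244672 (minus strand), chr2:26640225-26640254 (minus strand), chr19:8723477-8723506 (plus strand) and chr11:117076773-117076802 (plus strand). The run had 6 bases in Snhg12 and Snhg18, 5 in Snhg7, 3 in Snhg1 and 0 in Snhg20, and 4.36% of all genes in the promoter table had a run of at least 5.
Snhg12: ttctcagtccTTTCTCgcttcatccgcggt
Snhg18: cccaggccccTCCTCTagccccgcctcttc
Snhg7: gatgctcggcCTCTCggcagccatggcggc
Snhg1: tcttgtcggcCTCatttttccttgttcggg
Snhg20: gttccggccggaagtgcatttgcagagctg

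**Figure D4:**
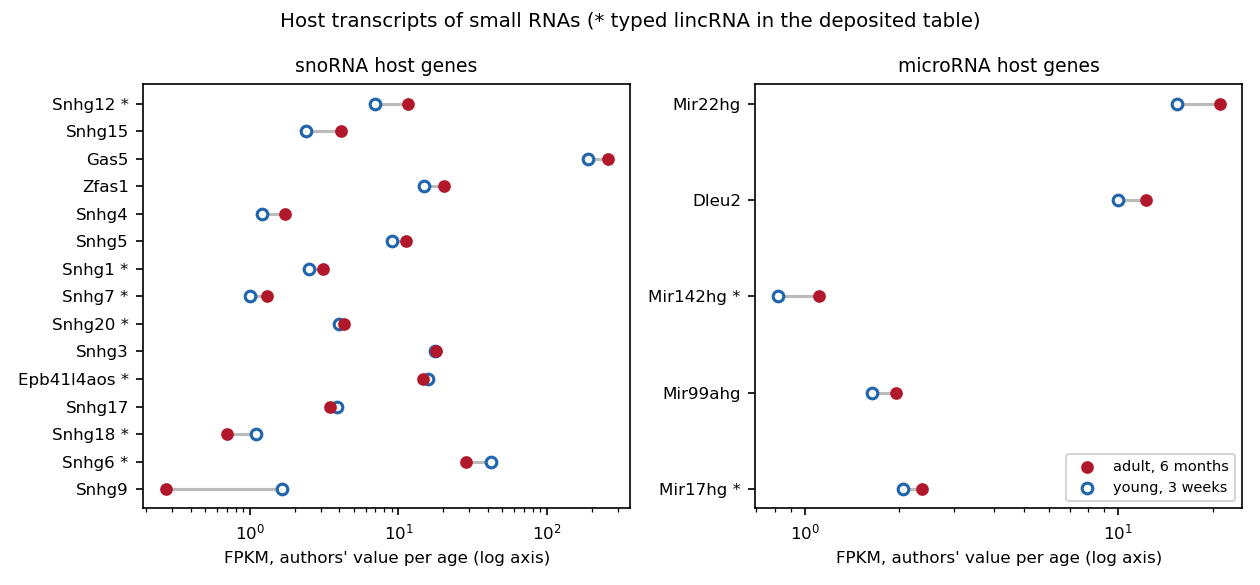
FPKM (horizontal axis, log scale) in adult liver (filled) and young liver (open) for the snoRNA hosts (left) and microRNA hosts (right) tested at 1 FPKM or more, ordered by change; stars mark genes typed lincRNA, and Mirt2, not a known host, is left out. Each point is the authors' single value per age. None of the genes shown was called, while Mirt2, which was left out, was called. Gas5, at 257 FPKM in adult and 189 FPKM in young liver, is the highest.

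By position in RefSeq, 8 of the 145 hold 23 mature microRNAs within their spans. None of these 8 hosts was called, against 7.47% of all genes tested at 1 FPKM or more, and 8 genes are too few to differ from that share. Among the called RNAs, Gm12718 contains a predicted microRNA gene of the deposited table, Gm23064. The values are those of the host RNA and say nothing of the mature microRNAs. The host 6720427I07Rik on chromosome 13, with 3.98 FPKM in adult and 2.74 FPKM in young liver (q = 0.203 in the authors' deposited table), holds let-7d, and let-7f-1 and let-7a-1 lie within 1000 bases of it. The let-7 family restrains growth genes in mature tissues. Its members are shown, in RefSeq's mature sequences, because they share the seed GAGGUAG (bases 2 to 8, in capitals).
let-7d-5p: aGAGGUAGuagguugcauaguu
let-7f-5p: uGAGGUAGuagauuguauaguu
let-7a-5p: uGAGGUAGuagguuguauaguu

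Mir17hg on chromosome 14, the host of the growth-linked miR-17 to miR-92a cluster, had 2.36 FPKM in adult and 2.05 FPKM in young liver (q = 0.879 in the authors' deposited table). Its microRNAs are shown, again with seeds in capitals, to set the shared seeds side by side: miR-17-5p and miR-20a-5p share AAAGUGC, and miR-19a-3p and miR-19b-3p share GUGCAAA.
miR-17-5p: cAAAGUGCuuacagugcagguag
miR-20a-5p: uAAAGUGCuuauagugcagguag
miR-18a-5p: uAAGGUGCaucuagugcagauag
miR-19a-3p: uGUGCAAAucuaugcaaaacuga
miR-19b-3p: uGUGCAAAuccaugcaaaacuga
miR-92a-3p: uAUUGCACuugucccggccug

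Gm26532, a single-exon transcript on chromosome 8 (84208920 to 84209609, plus strand), starts at the end of the miR-23a, miR-27a and miR-24-2 cluster. It shares 2 bases with the Mir24-2 gene and had the lowest q-value of the uncalled RNAs, 0.0505 in the authors' deposited table. It had 1.10 FPKM in adult and 0.354 FPKM in young liver, so it passed the 1 FPKM limit only through the adult value. The mature microRNAs of the adjoining cluster do not share a seed.
miR-23a-3p: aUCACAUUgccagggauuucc
miR-27a-3p: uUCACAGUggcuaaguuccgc
miR-24-3p: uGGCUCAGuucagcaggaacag

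The blood cell host Mir142hg had 1.11 FPKM in adult and 0.818 FPKM in young liver, and Gm27028, which holds miR-30c-2, had 0.658 FPKM in adult and 1.08 FPKM in young liver. Neither was called. E130102H24Rik, the host of miR-101a, had 4.83 FPKM in adult and 4.07 FPKM in young liver. On the fixed list of 12 microRNA hosts, 11 were in the table and 6 were tested at 1 FPKM or more. The 1 that was called, Mirt2, rose to 5.07 FPKM in adult liver, against 1.65 FPKM in young liver (q = 0.0356 in the authors' deposited table); it is typed misc_RNA, is not known to host a microRNA, and does not belong to the 145. Of the 7 p53 and growth-linked RNAs, 3 were tested at that level, and of these Pvt1 rose, Lockd was described above and Dancr had 3.54 FPKM in adult and 3.41 FPKM in young liver. Of 18 other RNAs with published roles, such as Hotair, Hottip and Fendrr, 11 were matched by symbol, and none of these 11 reached 1 FPKM. Cyrano, which that list holds as Oip5os1, was not matched by symbol and is described above as 1700020I14Rik.

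The distance to coding genes entered the choice of the lincRNAs only through their annotated type. Of the 87 that lay apart from coding genes, the median gap to the nearest was 6816 bases, 39 were within 5000 bases and 14 were over 50000 bases away. For 114 of the 145 the nearest coding gene was tested at 1 FPKM or more, and 4 of these neighbours (3.51%) were called, against 7.84% of all coding genes. Of the 10 called lincRNAs, 5 had such a neighbour and none of these was called. In the 52 overlapping pairs, the log2 changes of lincRNA and coding gene correlated (Pearson's r = 0.657, Spearman's rho = 0.536). Without the pair of Gm20649 and Onecut1, r was 0.545, and over the 48 pairs on opposite strands it was 0.565. Over the 62 pairs that lay apart, r was 0.01 and rho 0.05, and without Gm12718 r was 0.09. Over all 114 pairs r was 0.216, and 0.31 without Gm12718. Overlapping pairs share bases and, if strand was not kept, reads, so these correlations across genes describe the table and not independent measurements. The same direction was found in 34 of 52 overlapping pairs and in 33 of 62 pairs apart.

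**Figure D5:**
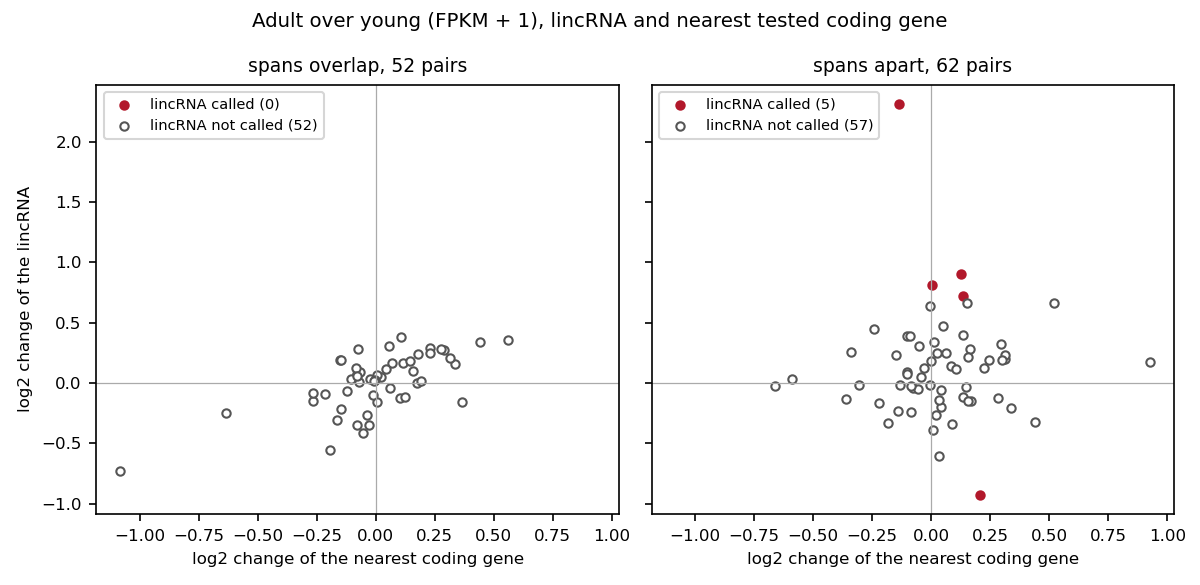
Log2 change between adult and young liver of each lincRNA (vertical axis) against that of its nearest coding gene tested at 1 FPKM or more (horizontal axis), for 52 pairs with overlapping spans (left) and 62 pairs apart (right); filled points are called lincRNAs. Over the overlapping pairs r was 0.657, or 0.545 without Gm20649 and Onecut1, at the lower left. Over the pairs apart r was 0.01, or 0.09 without Gm12718, the highest point.

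The 4 called neighbours stood beside uncalled lincRNAs. Insig1, which retains the sterol sensor complex in the endoplasmic reticulum, had 172 FPKM in adult and 259 FPKM in young liver and fell (q = 0.01005 in the authors' deposited table). Gm26608, whose start lies 258 bases from that of Insig1 on the opposite strand, had 1.11 FPKM in adult and 1.06 FPKM in young liver (q = 0.997 in the authors' deposited table). Atf3, a stress-induced transcription factor 6415 bases from D730003I15Rik, rose to 1.95 FPKM in adult liver, against 0.551 FPKM in young liver (q = 0.00189 in the authors' deposited table), while the lincRNA had 2.19 FPKM in adult and 1.83 FPKM in young liver. Mrps27, a mitochondrial ribosome protein gene that overlaps 6430562O15Rik, had 11.9 FPKM in adult and 19.1 FPKM in young liver (q = 0.00494 in the authors' deposited table), and the lincRNA had 0.755 FPKM in adult and 1.09 FPKM in young liver. Ogfrl1, 74489 bases from Gm27028, had 5.80 FPKM in adult and 4.02 FPKM in young liver and rose (q = 0.0438 in the authors' deposited table).

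For 39 of the 145, a coding gene on the opposite strand started within 5000 bases of the lincRNA start, at a median distance of 524 bases and within 1000 bases for 27. The spans of 17 of these 39 pairs overlapped. None of the 39 lincRNAs was called, against 7.47% of all genes tested at 1 FPKM or more. Where the partner was tested at 1 FPKM or more (33 pairs), the log2 changes had r = 0.307. In 23 lincRNAs such a gene started upstream, so that the pair is transcribed head to head, away from each other, with a median distance of 518 bases and 17 within 1000 bases. The coding partner was tested at 1 FPKM or more in 18 of them, and it was the more abundant of the pair in 16 of these 18 at each age. Their changes and those of the 18 partners had r = 0.21, with 11 of 18 in the same direction. The 145 were found on all 19 chromosomes, from 3 on each of chromosomes 3, 18 and 19 to 18 on chromosome 4 and 17 on chromosome 11.

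Close to the 1 FPKM limit, the values say little about membership. The 4 just inside were Gm27010 with 1.00 FPKM in adult and 0.754 FPKM in young liver, Gm26648 with 1.02 in adult and 0.995 in young, A530017D24Rik with 1.05 in adult and 0.765 in young, and A430046D13Rik with 0.916 in adult and 1.05 in young. The 4 just outside were Gm15758 with 0.994 FPKM in adult and 0.824 FPKM in young liver, Gm20748 with 0.793 in adult and 0.990 in young, Gm7854 with 0.989 in adult and 0.406 in young, and Gm26737 with 0.761 in adult and 0.989 in young.

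Cell type markers moved between the ages in the same libraries. Hepatocyte markers summed to 19286 FPKM in adult and 27137 FPKM in young liver, where 1 of the 5 markers tested at 1 FPKM or more fell and Alb is listed at 0 at both ages, which can be a failed estimate. All 3 T and NK cell markers tested at that level rose, and the 6 on that list summed to 14.3 FPKM in adult and 3.01 FPKM in young liver. Of the 6 cycling cell markers 4 fell, with a sum of 20.04 FPKM in adult and 39.2 FPKM in young liver, and 4 of 5 erythroid and 4 of 4 mesothelial markers fell. Of the other lists, 2 of 6 macrophage and 1 of 3 B and plasma cell markers rose, while 2 of 3 cholangiocyte, 2 of 6 endothelial and 1 of 6 stellate cell and fibroblast markers fell. In bulk liver, fewer cells of a type and less RNA per cell cannot be told apart, and the part of these shifts in the lincRNA values was not tested.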

How the data were processed

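Total RNA of 6 pooled mouse liver libraries, 3 per age, was sequenced; per the submitters' processing notes the authors used TopHat2 2.0.11, Cufflinks 2.2.1 and Cuffdiff on GRCm38. The annotation release and library normalization were not given in the sources used here. Deposited by the authors was 1 table with 1 FPKM per gene and age, and p-values and q-values of their own test; these deposited p-values and q-values were used unchanged. A table row gives no value per library, so the depth is unknown and no standard deviation or test was computed; 0 per-sample columns were left unused.

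Computed here, with pandas 2.3.3, numpy 2.4.6 and matplotlib 3.10.9, were log2((adult FPKM + 1)/(young FPKM + 1)), counts at q under 0.05, overlaps and gaps between spans (GENCODE M21, matched by identifier), and sequence features (RefSeq GRCm38.p6). The arithmetic was tested on simulated data.

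The lincRNAs and the gene lists were chosen with earlier results of these data known. Named are all called lincRNAs, the 12 highest, and the 12 uncalled ones with the largest change. Also named are those on the lists and the 4 nearest the limit on each side. Coding neighbours that were called are named, and only some of those under 5000 bases away. Other neighbours of called RNAs, the other hosts and E130102H24Rik were named after their values were seen. Alternatives covered the level minimum, thresholds, pseudocount, scaling and choice of chromosomes. Values without Gm12718 or Gm20649 and those over the 44 nearest promoter windows were chosen after seeing the data.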

Additional observations from a re-analysis of the deposited data

How the results depend on the processing

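The 10 calls (7 higher, 3 lower in adult liver) came to 6 for the 44 lincRNAs at 5 FPKM or more, to 6 at q under 0.01 in the authors' deposited table, and to 2 where 2-fold was also asked. With no level minimum there were 15 among 500 tested lincRNAs, 8 higher and 7 lower, and the authors' p-values adjusted here by Benjamini-Hochberg gave 12. The share of all tested genes called was not computed at these other settings, so these counts have no matching background. The median log2 change of 0.07 was 0.0208 with no minimum and 0.0043 at 5 FPKM or more. It was 0.12 over the 87 apart from coding genes, an alternative chosen after seeing the data. The 3 past 2-fold were 1 at 5 FPKM or more and 9 (7 higher, 2 lower) with a pseudocount of 0.1 or with none; the added 1 shrinks changes of low genes by construction. Fewer members explain the smaller counts at higher minima by construction. Scaling both ages to the same sum, or centring on the median of tested genes, left all 10 directions as they were. The scaling was -0.0073 and the median 0.0033 on the log2 scale. Both were far smaller than the smallest called change, -0.50 in Gm26905, so neither could have reversed a direction. A pseudocount cannot change a direction, by construction. No paired analysis was possible because the table holds 1 value per age, and for the same reason no replicate could be left out. The authors' test rests on 3 pools per age, and its error model was not given in the sources used here.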
